A study of Vitis vinifera with 24 samples.

Results

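The leaf response to salt was measured by RNA-seq in the grapevine Vitis vinifera cultivar 'Thompson Seedless'. Its size rests on 6 of the 24 libraries of the study, chosen by their treatment labels: 3 from leaves exposed to NaCl for 48 h and 3 from control leaves (CK), neither given trehalose. The spread used to test it was shared over all 24 libraries. The other libraries, 3 per group, came from leaves given PEG6000, kept at 4 ℃ (4C), given trehalose with 1 of these stresses (Tre-NaCl, Tre-PEG6000, Tre-4C) or given trehalose alone (Tre), all for 48 h. PEG6000, a polyethylene glycol, is used to impose an osmotic water deficit, and trehalose is a disaccharide of glucose. All leaves came from self-rooted cuttings raised in a greenhouse at 25 to 30 ℃ and 60 to 75% relative humidity. The labels give no NaCl dose, no way of application, no time for the control and no batch, so a batch that coincided with a group cannot be told apart from it. They call the replicates biological without saying whether each was its own plant, and the p-values therefore cover the spread among these libraries, which may be technical.

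Salt in the root zone acts on a plant in a pair of ways, first by lowering the water potential around the root and later by the build-up of sodium and chloride in the leaf. Plant leaves are known to answer with abscisic acid signalling, stomatal closure, compatible solutes, and transporters that export sodium or store it in the vacuole. A self-rooted vine has no rootstock of another species that could hold chloride back from the shoot. The table carries gene identifiers only, of the kinds Vitvi and PT_newGene. Of its 35840 identifiers, 0 could be matched to a gene name, so no gene below has a name or a known role, and pathway lists and leaf cell type markers could not be applied. Only 4 identifiers are therefore printed, and the rest of the response is described by level, size, identifier and behaviour in the other groups. In whole leaves, fewer cells of a type and less RNA per cell cannot be told apart.

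Values are FPKM, fragments scaled to transcript length and to the mapped fragments of the library, and the depth behind them is unknown. The sum of FPKM was 600768 to 608275 in NaCl libraries and between 626907 and 637648 in CK libraries. More genes reached 1 FPKM in NaCl leaves, 17783.3 ± 15.3, than in CK leaves, 16970.3 ± 16.2 (SD, n = 3 each). Pearson correlations of log2(FPKM + 1) were 0.996 between replicates within NaCl, 0.996 to 0.997 within CK, and 0.959 to 0.960 between NaCl and CK libraries. The replicates of both groups were equally tight, with a median SD per gene of 0.06 in NaCl and 0.07 in CK on the log2 scale. In all, 20053 genes reached 1 FPKM in at least 3 of the 24 libraries and were tested with limma on log2(FPKM + 1), with an adjusted p below 0.05 as the threshold for a call. All 24 libraries entered 1 fit, so the SEs and p-values draw on the spread within all 8 groups.

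Salt altered a large part of the leaf transcriptome by small amounts and a smaller part strongly, and the strong changes were mostly rises. Of the 20053 genes, 9404 (46.9%) were called higher and 3606 (18%) lower in NaCl than in CK leaves. At a change of 2-fold or more, 1178 genes (5.87%) rose and 193 (0.962%) fell. They are called the raised and the lowered genes below. The surplus of rises grew with the size of the change. Among called genes changed at least 1.2-fold, 73.7% were higher (7004 higher, 2505 lower). At 4-fold or more it was 95.4% (249 higher, 12 lower), and at 8-fold or more 40 genes rose and 0 fell. At 16-fold or more 4 genes rose.

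The surplus over all genes depended on how the libraries were scaled, and the surplus among strong changes did not turn. Over all genes the median log2 change was 0.14. With median-of-ratios scaling, which brings this median to about 0, 5997 genes were called higher and 6026 lower, and 903 rose and 321 fell at least 2-fold. At 4-fold or more the counts were then 190 higher and 20 lower, and with quantile normalization 170 higher and 20 lower. The raised genes found with median-of-ratios scaling were all among the 1178, of which 275 were lost, and the 193 lowered genes were all kept with 128 added. The 2-fold counts also moved with the pseudocount, to 2060 higher and 380 lower at 0.1. A test of each gene against a 2-fold change in limma (treat) left 740 higher and 85 lower.

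Just inside the 2-fold limit, 194 raised genes had a log2 change below 1.1 and 54 lowered genes one above -1.1. Just outside it, 226 called genes lay at 0.9 to 1 and 70 at -1 to -0.9. In 870 of the 1178 raised genes (73.9%) the lowest NaCl library was at least 2-fold above the highest CK library on the FPKM + 1 scale. In 123 of the 193 lowered genes (63.7%) the highest NaCl library was as far below the lowest CK library. The smallest such ratio was 1.25 among the raised genes. Among the lowered genes it was 0.736, where NaCl and CK libraries overlapped. Both sets were chosen from these libraries, so the separation follows in part from the choice and the counts are a description. At the other end of the response, 4547 genes (22.7%) had a 95% interval of the change that lay wholly within 1.2-fold in either direction. Of the 7043 genes that were not called, 3590 were bounded in this way, and for the others a change of more than 1.2-fold lay within the interval.

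**Figure D1:**
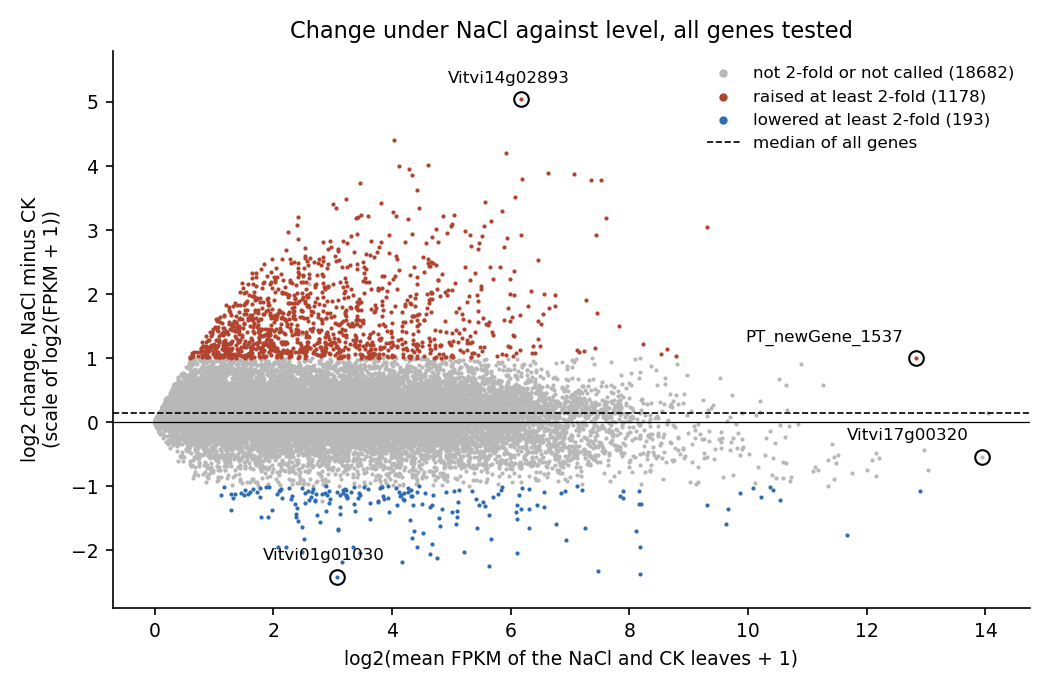
Log2 change of each of the 20053 genes, NaCl minus CK (vertical axis, log2(FPKM + 1) scale), against its mean level in the 6 libraries (horizontal axis, log2 scale). The 1178 raised genes (red) reach a log2 change of 5.04, the 193 lowered genes (blue) -2.42, and the 4 named genes are circled.

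In CK leaves the raised genes were lower than the lowered genes, an order that follows in part from choosing them by their change. The raised genes had a median of 8.49 FPKM in NaCl and 1.91 FPKM in CK leaves, and 389 of them averaged below 1 FPKM in CK leaves. The lowered genes had a median of 8.17 FPKM in NaCl and 21.3 FPKM in CK leaves. The medians of both sets were thus alike in NaCl leaves. Over all tested genes the median was 8.76 to 8.90 FPKM in NaCl libraries and 7.44 to 7.59 FPKM in CK libraries. Of the raised genes 47 averaged 100 FPKM or more in NaCl leaves and 8 did so in CK leaves, while of the lowered genes 19 did so in NaCl and 37 in CK leaves. Classed by their mean over all 24 libraries, 6.54% of 5394 genes at 1 to 5 FPKM were raised and 0.649% lowered. Of 884 genes at 100 FPKM or more 5.77% were raised and 3.17% lowered. Genes below 1 FPKM on this mean held 47 raised and 0 lowered genes of 1973, and there the added 1 in log2(FPKM + 1) limits how far a gene can fall.

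A group of 42 genes was below 1 FPKM in each of the CK libraries and reached 5 FPKM in each of the NaCl libraries, and 0 genes did the reverse. Their means ranged from 5.30 to 30.3 FPKM in NaCl leaves and from 0.0458 to 0.941 FPKM in CK leaves. In all 3 PEG6000 libraries 36 of the 42 reached 5 FPKM as well. The median of the 42 genes was 6.59 FPKM in NaCl leaves and 12.8 FPKM in PEG6000 leaves. In the cold 11 of the 42 were at that level in every library. In Tre-NaCl leaves 1 of the 42 was, and 11 were below 1 FPKM in every library. These genes were picked by their NaCl and CK values, so the levels in those 2 groups are a description. The share of all genes that reached 5 FPKM was not taken, so the counts in the other groups are a description too.

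The transcripts most abundant in Tre leaves mostly fell under salt. To avoid picking them from the libraries compared, they were taken from the Tre libraries. Tre leaves had no stress, so this choice favours genes that are abundant without stress. Of the 100 most abundant genes there, 78 were called lower and 17 higher in NaCl than in CK leaves, where 18% and 46.9% of all genes were. Their median log2 change was -0.51, against 0.14 over all genes. Together they held 27.9 ± 0.17% of the FPKM in NaCl leaves and 35.8 ± 0.06% in CK leaves (SD, n = 3 each), with ranges of 27.8 to 28.1% and 35.8 to 35.9% that did not overlap. Only 1 of the 100 rose and 12 fell at least 2-fold, so most of these shifts were below 2-fold. Of the 1000 most abundant genes in Tre leaves, 379 were called higher and 518 lower. The surplus of falls depended on the group used for the choice. Of the 884 genes with a mean of 100 FPKM or more over all 24 libraries, 431 were called higher and 373 lower. Their median log2 change was 0.06. More of the 100 were called lower than higher under each of the 4 scalings run (FPKM as deposited, a TPM-like scaling to equal sums, median-of-ratios and quantile), by as little as 49 against 33 with quantile normalization. FPKM are shares of a library, so a lower share of abundant genes goes with higher values of other genes at the same RNA content, and total RNA per leaf was not measured.

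Vitvi14g02893 had the largest log2 rise of the genes that met the naming conditions. It was at 146.1, 124.3 and 147.9 FPKM in NaCl leaves, against 3.10, 3.56 and 3.09 FPKM in CK leaves. Every NaCl library was far above every CK library, and the ratio of the means was 42.9. The log2 change was 5.04 (SE 0.08, limma adjusted p = 5.52e-24). Across all groups NaCl leaves had its highest level, followed by Tre-PEG6000 at 76.5 ± 4.9 and PEG6000 at 75.7 ± 5.1 FPKM (SD, n = 3 each), which lay within their spread of each other. Then came Tre-4C at 34.0 ± 1.1, 4C at 31.8 ± 0.93 and Tre-NaCl at 8.43 ± 0.93 FPKM, and Tre and CK lay within their spread of each other at 3.09 ± 0.39 and 3.25 ± 0.27 FPKM. Its level was higher in NaCl than in PEG6000 leaves by 0.87 (SE 0.08) and than in 4C leaves by 2.096 (SE 0.08) on the log2 scale, with limma adjusted p of 3.53e-10 and 1.2e-17.

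PT_newGene_1537 had the largest rise in mean FPKM. It was at 9591.7, 10926.7 and 8655.8 FPKM in NaCl leaves, against 4607 and 5128.7 and 4790.8 FPKM in CK leaves. All NaCl libraries were above all CK libraries, but they were spread more widely, with an SD of 1141.3 FPKM in NaCl and 264.6 FPKM in CK leaves. Its log2 change of 1.00 (SE 0.10, limma adjusted p = 1.3e-08) placed it at the 2-fold limit, and it was 0.91 without the second NaCl replicate, 0.97 without the first CK replicate and 0.99 without the third. Over the groups its level ran in the order Tre-NaCl (12656 ± 585.4 FPKM), NaCl (9724.7 ± 1141.3 FPKM), 4C (8712.5 ± 298.4 FPKM), then the other 5 groups between 4842.2 and 6471.7 FPKM on average (n = 3 each). NaCl and 4C leaves did not differ beyond their spread in limma (log2 difference 0.15, SE 0.10, adjusted p = 0.176), while NaCl exceeded PEG6000 leaves by 1.00 (SE 0.10, adjusted p = 9.69e-09).

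Vitvi01g01030 had the largest log2 fall. It was at 1.47, 1.45 and 2.06 FPKM in NaCl leaves, against 12.8, 13.4 and 13.1 FPKM in CK leaves, with no overlap. The log2 change was -2.42 (SE 0.09, limma adjusted p = 7.12e-17). It was also low in PEG6000 leaves (0.779 ± 0.13 FPKM) and in 4C leaves (1.28 ± 0.29 FPKM). In Tre-4C leaves it was at 1.84 ± 0.20 FPKM and in Tre-NaCl leaves at 6.71 ± 0.19 FPKM. Its highest levels were 21.6 ± 1.0 FPKM in Tre-PEG6000 and 19.0 ± 0.98 FPKM in Tre leaves (SD, n = 3 each).

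Vitvi17g00320, the most abundant of the 4, had the largest fall in mean FPKM. It was at 12709.6, 12566.3 and 13087.6 FPKM in NaCl leaves, against 19058 and 18396.7 and 18215.4 FPKM in CK leaves. The groups did not overlap, and the fall was well short of 2-fold, with a log2 change of -0.54 (SE 0.03, limma adjusted p = 4.25e-13). It averaged 10052.8 ± 163.1 FPKM in PEG6000 and 10587.8 ± 165.1 FPKM in 4C leaves, below NaCl leaves in both cases, with log2 differences of 0.35 and 0.27 for NaCl minus each (limma adjusted p = 8.05e-10 and 3.09e-08). Tre leaves, at 18711.1 ± 229.6 FPKM, and CK leaves, at 18556.7 ± 443.5 FPKM, lay within their spread (SD, n = 3 each).

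**Figure D2:**
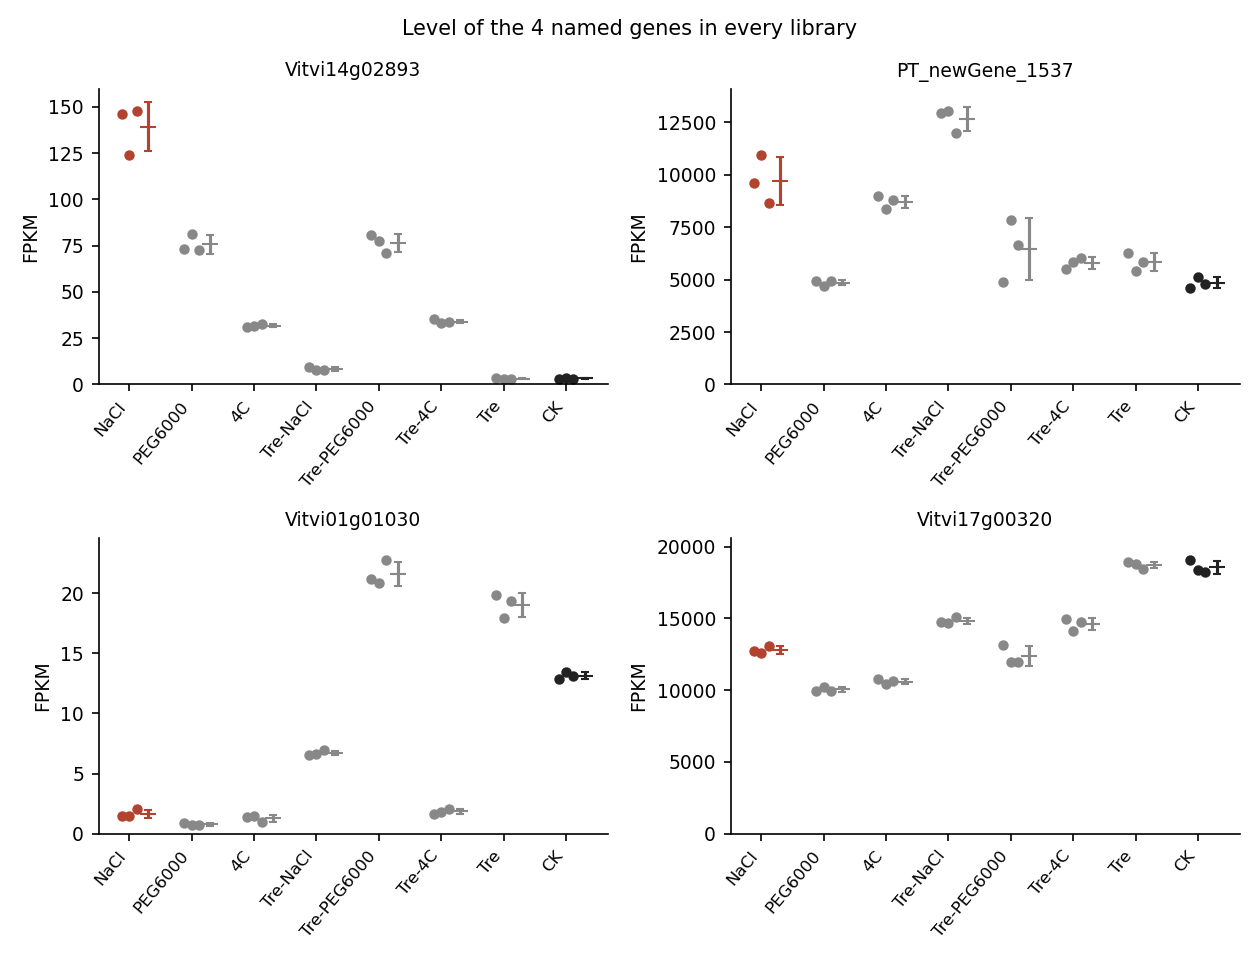
FPKM of the 4 named genes in each of the 24 libraries (points), with the group mean and SD beside them (n = 3 each) and a vertical axis from 0. Vitvi14g02893 is highest in NaCl leaves (red), and Vitvi01g01030 is low in NaCl, PEG6000, 4C and Tre-4C leaves.

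Both sets held a small share of the summed FPKM in either group. The 1178 raised genes held 6.11 ± 0.19% of the FPKM in NaCl leaves and 1.97 ± 0.05% in CK leaves (SD, n = 3 each). PT_newGene_1537 alone supplied much of this and of its spread. Without it the other raised genes held 4.50 ± 0.0071% in NaCl and 1.198 ± 0.0067% in CK leaves, 3.76 times as much. The 193 lowered genes held 2.63 ± 0.0030% in NaCl and 6.09 ± 0.090% in CK leaves. Which set held more in NaCl leaves turned with median-of-ratios scaling, where the 903 genes then raised held 3.45% and the 321 then lowered 5.66%. In FPKM as deposited, all NaCl libraries lay on 1 side of all CK libraries for the raised genes, with or without PT_newGene_1537, and for the lowered genes. An exact two-sided permutation test gave p = 0.1 for each, the smallest that 3 against 3 libraries allow. The shares with median-of-ratios scaling were not tested. The genes were chosen from these libraries, so the direction and this p-value follow from the choice, and the sizes are a description.

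The level of the raised genes differed widely across the other groups, which entered their choice through the filter and the shared variance but not through the change itself. Their median was 8.42 to 8.51 FPKM in NaCl libraries, 19.5 to 20.1 FPKM in PEG6000, 5.96 to 6.25 FPKM in 4C, 3.05 to 3.08 FPKM in Tre-NaCl, 5.87 to 5.98 FPKM in Tre-PEG6000, 7.36 to 7.37 FPKM in Tre-4C, 1.83 to 1.98 FPKM in Tre and 1.91 to 1.97 FPKM in CK. The Tre libraries overlapped with the CK libraries and the 4C libraries with the Tre-PEG6000 libraries, and no other pair of groups overlapped. PEG6000 leaves thus had these genes at the highest median of the 8 groups, above NaCl leaves themselves. The lowered genes had medians of 8.05 to 8.54 FPKM in NaCl, 4.78 to 5.06 FPKM in PEG6000, 6.42 to 6.75 FPKM in 4C, 15.2 to 15.7 FPKM in Tre-NaCl, 8.50 to 8.89 FPKM in Tre-4C and 20.9 to 21.4 FPKM in CK libraries. Tre and Tre-PEG6000 leaves had them above CK, at 25.1 to 26.0 and 23.8 to 25.6 FPKM.

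**Figure D3:**
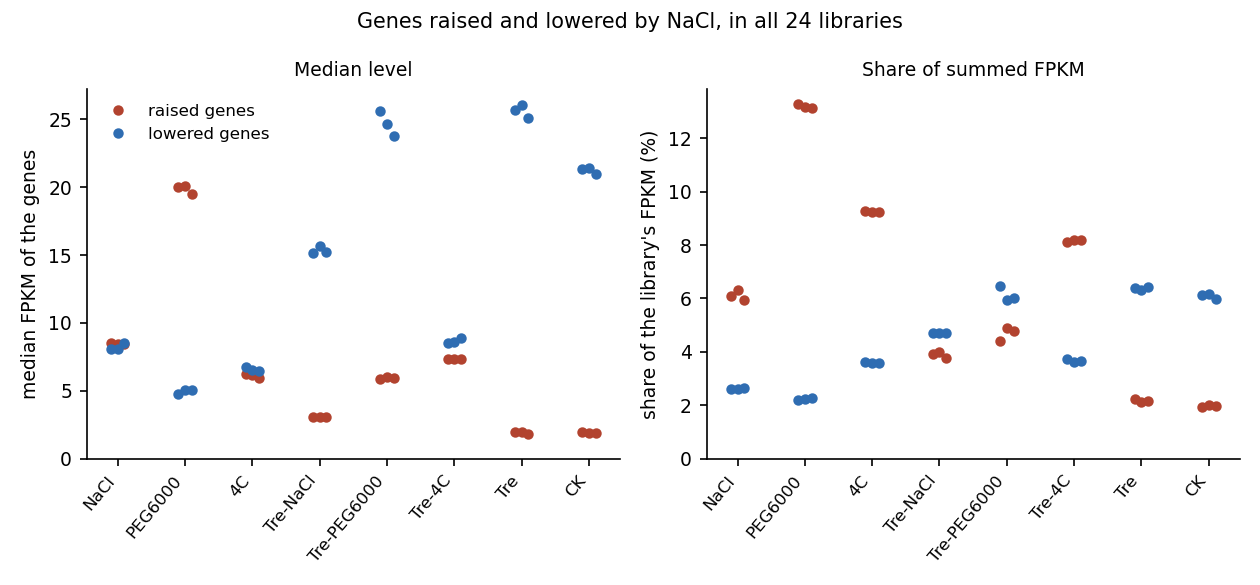
Median FPKM (left) and share of the library's summed FPKM in percent (right) of the 1178 raised genes (red) and the 193 lowered genes (blue), 1 point per library. The raised genes are highest in PEG6000 libraries (19.5 to 20.1 FPKM median) and near 2 FPKM in Tre and CK libraries.

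Direct tests placed NaCl below PEG6000 for most raised genes. Of the 1178, 207 (17.6%) were called higher and 859 (72.9%) lower in NaCl than in PEG6000 leaves, where 42.4% and 29.9% of all 20053 genes were, and the median log2 difference was -0.90. Against 4C leaves 757 (64.3%) were called higher and 316 (26.8%) lower, close to the 63.8% and 21.7% of all genes in FPKM as deposited. The median log2 difference was 0.64 for the raised genes and 0.37 for all genes. The commonest pattern, in 494 raised genes (41.9%), was a level below PEG6000 and above 4C, and 275 (23.3%) were below both. For these joint patterns no share of all genes was taken, so both counts are a description. No CK value enters these differences, though the CK libraries share the filter and the variance of the fit. The NaCl libraries are shared with the choice of the genes, which adds to the counts above the other stress. Under the 4 scalings the share below PEG6000 was 70.0 to 77.0% and the share above 4C 52.8 to 64.3%. Shares of all genes were taken only for FPKM as deposited, so the comparison with them holds for that scaling alone.

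Of the 193 lowered genes, 120 (62.2%) were called higher and 45 (23.3%) lower in NaCl than in PEG6000 leaves, against 42.4% and 29.9% of all genes. Against 4C leaves 100 (51.8%) were called higher and 70 (36.3%) lower, where 63.8% and 21.7% of all genes were, so the share higher was below that of all genes and the share lower above it. The order of the counts turned with median-of-ratios scaling, to 32.1% higher and 52.7% lower, and with quantile normalization, to 34.2% higher and 47.7% lower. For these scalings no share of all genes was taken to set beside them.

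The raised genes were spread over all identifiers, with a surplus at the number 16. In a Vitvi identifier the 2 digits after the prefix give the chromosome in the grapevine naming scheme, and 00 stands for sequence not placed on one. Identifiers with the number 16 held 100 raised genes among 705 tested (14.2%) and 1 lowered gene. The shares raised ran from 3.76 to 7.05% for the other numbers of the 19, and 5.57% of all tested genes without the number 16 were raised. With median-of-ratios scaling it was 11.4% at the number 16 against 4.25% of the others, and with quantile normalization 9.64% against 3.81%. PT_newGene identifiers also had a high share, with 52 raised of 475 (10.9%). These shares are descriptions, and no test was made of a list noticed in the data.

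Within the number 16 the raised genes were not evenly placed. Of 403 blocks of 100 consecutive identifier numbers with at least 20 genes tested, the 3 with the highest share raised all belonged to it. They were the block from 4300 (12 of 27 genes), that from 1900 (14 of 38) and that from 4400 (12 of 33), where the median block had 4.55% of its genes raised and 70 blocks had 0. Numbers that follow each other need not be neighbours on the chromosome. Reads of near-identical copies may have been shared out between genes of such blocks, and FPKM do not show this, so the genes may not be independent. The 100 raised genes of the number 16 had a median of 6.86 to 7.13 FPKM in NaCl libraries and of 1.58 to 1.67 FPKM in CK libraries. In PEG6000 libraries it was 12.9 to 13.6 FPKM and in Tre-NaCl libraries 2.51 to 3.04 FPKM. Their median log2 change of 1.42 was like that of all raised genes, 1.43.

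**Figure D4:**
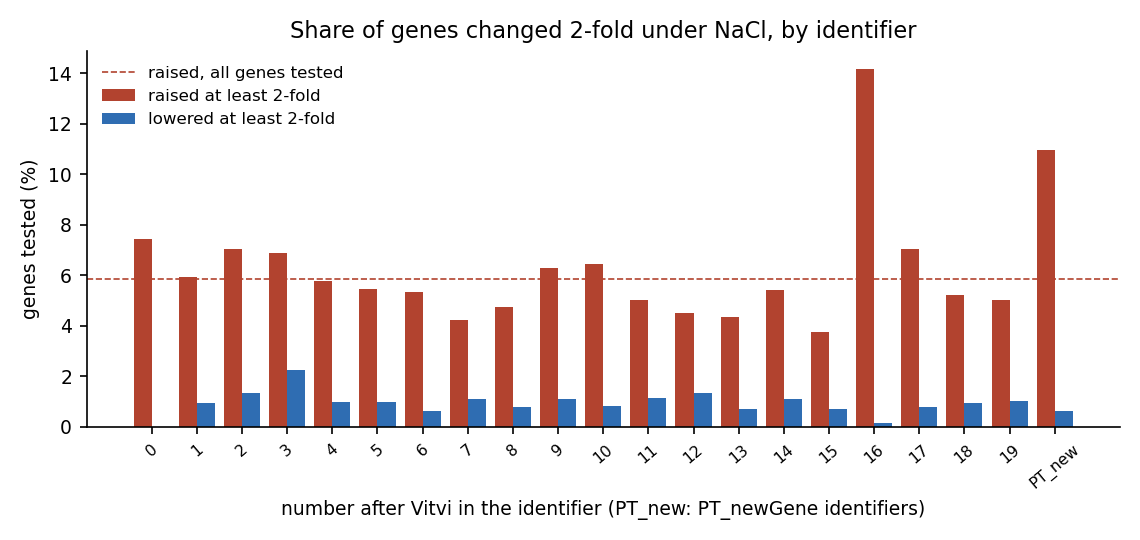
Percent of the genes tested that were raised (red) or lowered (blue) at least 2-fold under NaCl, by the number in the Vitvi identifier and for PT_newGene identifiers (PT_new). The number 16 reaches 14.2%, against 5.87% over all genes (dashed line).

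The salt effect was measured a second time in the study, between Tre-NaCl and Tre leaves, with 6 libraries whose values do not enter the change between NaCl and CK leaves, though they share the filter and the variance of the fit. Most of the raised genes kept their direction there, at a much smaller size. Of the 1178 raised genes, 831 (70.5%) were called higher in Tre-NaCl than in Tre leaves and 39 (3.31%) lower, where 33.4% and 16.1% of all genes were, and 308 were not called. At 2-fold or more 112 rose in this second comparison and 2 fell. Their median log2 change was 0.38 with trehalose and 1.43 without, and over all genes 0.07 and 0.14. With quantile normalization 512 of 805 raised genes (63.6%) were called higher in Tre-NaCl than in Tre leaves. The share of all genes was not taken under that normalization.

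Genes with a larger rise under NaCl were called more often in the trehalose pair. Of the 693 genes raised 2- to 3-fold, 66.1% were called higher in Tre-NaCl than in Tre leaves, and of the 40 genes raised 8-fold or more, 95% were (38 genes), 20 of them at 2-fold or more. The median log2 changes of these 40 were 1.021 with trehalose and 3.35 without. Of the 193 lowered genes, 173 (89.6%) were called lower and 9 higher in Tre-NaCl than in Tre leaves, where 16.1% and 33.4% of all genes were. Their median log2 change was -0.66 with trehalose and -1.19 without. Across the 20053 genes, which are not independent replicates, the salt effects with and without trehalose had a Pearson correlation of 0.55 and a Spearman correlation of 0.53.

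The difference between the salt effects was tested as an interaction, the effect with trehalose minus that without. It was below 0 in 1105 of the raised genes (93.8%) and above 0 in 13, where 28.7% and 14.3% of all genes were called below and above 0. Among the lowered genes it was above 0 in 152 (78.8%) and below 0 in 6. The interaction shares the NaCl and CK libraries with the choice of the genes, which by itself favours a smaller effect in the other pair. Vitvi14g02893 was at 9.51, 7.85 and 7.94 FPKM in Tre-NaCl leaves, against 3.52, 2.98 and 2.76 FPKM in Tre leaves, all far below its level in NaCl leaves. It had an interaction of -3.84 (SE 0.11, limma adjusted p = 3.54e-18), with log2 changes of 1.21 with trehalose and 5.04 without. Vitvi01g01030 had one of 1.04 (SE 0.13, adjusted p = 3.88e-07, limma), with changes of -1.38 and -2.42. For PT_newGene_1537 the 2 effects were alike in size, at 1.11 and 1.00, with a difference of 0.11 (SE 0.15, limma adjusted p = 0.578).

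**Figure D5:**
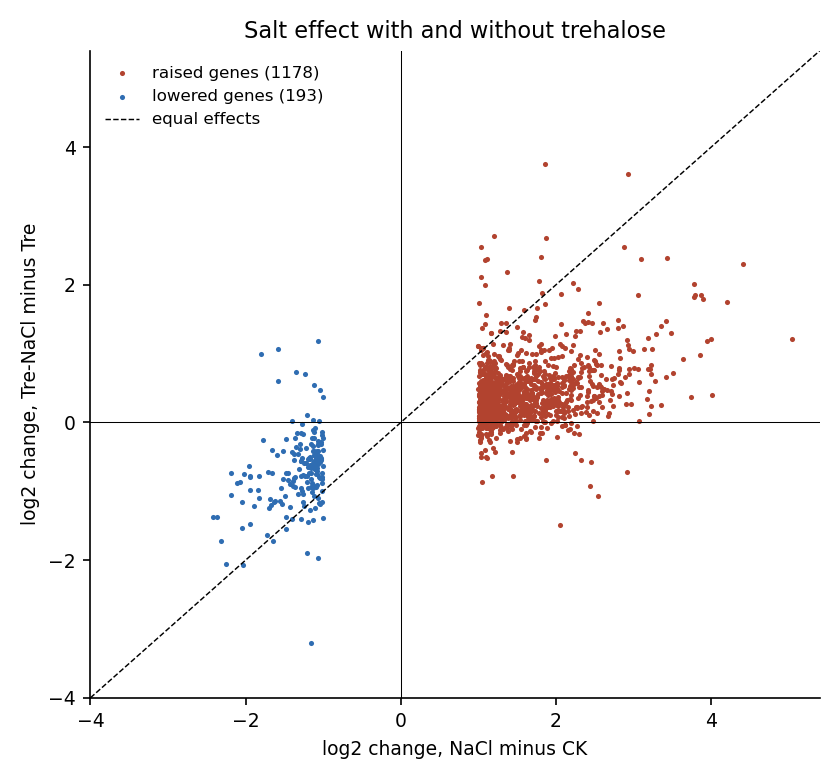
Log2 change of the 1178 raised (red) and 193 lowered (blue) genes between Tre-NaCl and Tre leaves (vertical axis) against that between NaCl and CK leaves (horizontal axis). Most points lie nearer to 0 on the vertical axis than the dashed line of equal effects, with medians of 0.38 against 1.43 for the raised genes.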

How the data were processed

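The authors deposited 1 table of FPKM with a column for each library. Per the submitters' processing notes the tools included StringTie 2.1.3b, SAMtools 1.9, HISAT2 2.1.0 and fastp 0.20.0, with no role or order stated. Genome build, annotation and strand setting: not given in the sources used here. Columns were assigned to samples by name and samples to groups by title, with 0 columns unused. Reads could not be recovered from the low values: in 1911 low genes the ratios between 2 CK libraries did not pile up at fixed steps, and the fullest 2% interval had 1.99% of them. Depth is therefore unknown, and no count test was run.

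Genes at 1 FPKM or more in at least 3 libraries were tested on log2(FPKM + 1) with limma 3.58.1 in R 4.3.3 (trend of the variance on the mean, 1 mean for each of the 8 groups, 16 residual degrees of freedom). Such fold changes understate the change of low genes. P-values are two-sided, adjusted by Benjamini-Hochberg within each of 5 contrasts. Genes were named by size: the largest log2 rise and fall and the largest rise and fall in mean FPKM, among called genes whose replicates did not overlap and whose higher group reached 5 FPKM. The members, lists and rules were chosen with earlier results of these data known. The fit was tested on simulated data with known changes, 50 genes at each size among 20053. It called 23 of the 50 in the right direction at 1.2-fold and 41 at 1.5-fold. At 2-fold it called 49 and at 4-fold 50, and there were 15 false calls. Changes near 1.2-fold were thus often missed. Alternatives were other pseudocounts, low-value filters, scalings and variance models, the replicate number as a block, the 2 groups alone, and each replicate left out. Python 3.11.15, SciPy 1.17.1 and matplotlib 3.10.9 were used for summaries and figures.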

Additional observations from a re-analysis of the deposited data

Results flagged for a closer look

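The salt effect differed between leaves with and without trehalose by the interaction test in limma at an adjusted p below 0.05. It was smaller with trehalose in 1105 of the 1178 raised genes and larger in 13. It was smaller in 152 of the 193 lowered genes and larger in 6. Over all 20053 genes 28.7% had an interaction below 0 and 14.3% one above 0. The raised and lowered genes were chosen from the NaCl and CK libraries that enter the interaction, which by itself favours a smaller effect with trehalose. Of the named genes, the interaction was -3.84 on the log2 scale for Vitvi14g02893, 1.04 for Vitvi01g01030 and 0.20 for Vitvi17g00320, the last with an adjusted p of 0.00073.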

How the results depend on the processing

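The direction of the change of all 4 named genes and their call held in every alternative in which they were fitted. With pseudocounts of 0.1 and 0.01, genes raised at least 2-fold numbered 2060 and 2208 and lowered genes 380 and 418. The sets grew, and the shares of them below fell. Raised genes also higher in Tre-NaCl than Tre leaves then numbered 1248 and 1298 (60.6% and 58.8%, from 70.5%). Those that differed from PEG6000 leaves numbered 1720 and 1710 (83.5% and 77.45%, from 90.5%), and from 4C leaves 1753 and 1787 (85.1% and 80.9%, from 91.1%). At the pseudocount of 1, 42.4% of all genes were called higher and 29.9% lower in NaCl than in PEG6000 leaves. Against 4C leaves 63.8% and 21.7% of all genes were. Under the alternatives no share of all genes was taken for the comparisons with trehalose or the other stresses. Those counts are therefore descriptions. The share with a smaller effect with trehalose fell from 93.8% to 79.4% and 72.6%. Lowered genes also lower in Tre-NaCl than Tre leaves numbered 265 at 0.1 (69.7%, from 89.6%). Lowered genes with a smaller effect with trehalose numbered 240 at 0.01 (57.4%, from 78.8%). Requiring a mean of 5 FPKM, where fewer genes are tested, left 778 raised genes, 725 with a smaller effect with trehalose and 705 that differed from 4C leaves. With median-of-ratios scaling 5997 genes were higher and 6026 lower, 321 fell at least 2-fold, 292 of these fell in Tre-NaCl leaves too and 260 had a smaller effect with trehalose. The raised genes then held 3.45% and the lowered genes 5.66% of the FPKM in NaCl leaves; PT_newGene_1537, at a log2 change of 0.81, no longer counted as raised. With quantile normalization 5624 genes were higher and 6874 lower, 333 fell at least 2-fold, and 512 raised and 288 lowered genes kept their direction in Tre-NaCl leaves, while 273 lowered genes had a smaller effect with trehalose. A limma test against a 2-fold change left 740 and 85 genes. For the other moves the cause was not tested. Leaving out 1 NaCl or CK replicate gave 1166 to 1187 raised and 191 to 204 lowered genes. The share of FPKM held by the raised genes in NaCl leaves was then 4.46 to 6.22%, the low values coming without the second NaCl, the first CK or the third CK replicate, when PT_newGene_1537 dropped below 2-fold, and that held by the lowered genes 2.48 to 2.64%. With the replicate number as a block, 9367 genes were called higher, 3590 were called lower and the 2-fold counts stayed at 1178 and 193. The block changed no call reported here by more than 1.5 times. Pairing by replicate number was looked at in the deviations of the libraries from their groups, not in the levels correlated above. In these deviations same-numbered NaCl and CK libraries correlated at -0.04 to 0.0035 and Tre-NaCl and Tre libraries at -0.06 to 0.02. NaCl and PEG6000 libraries correlated at -0.03 to -0.0087 and NaCl and 4C libraries at -0.07 to -0.0027. The numbers thus showed no pairing of the samples, though 3 replicates per group cannot exclude one. Of the 3 NaCl libraries 0 correlated best with the CK library of their number, and 1 of the 3 Tre-NaCl libraries did so with the Tre library. Without depth, no limit can be set on genes listed at 0.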

Other observations

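A small group of 7 genes was at 2 FPKM or more in every CK library and below 1 FPKM in every NaCl library. Their means were 0.354 to 0.957 FPKM in NaCl leaves and 2.29 to 2.88 FPKM in CK leaves, so these losses concerned genes of low level. In Tre-NaCl leaves the 7 genes were at 0.865 to 2.81 FPKM, and in Tre leaves at 1.58 to 4.65 FPKM. In the opposite direction 227 genes were below 1 FPKM in all CK libraries and reached 2 FPKM in all NaCl libraries. Both groups were chosen by their NaCl and CK values, and the counts are descriptions.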
